A study of Macaca mulatta with 38 samples.

Results

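B cells and monocytes of 1 rhesus macaque were compared by the barcodes they carried, after the clone that came to fill the nucleated red cells had been taken out. The comparison rests on 10 of the 38 libraries of the series, 5 labelled B and 5 labelled Mono (monocytes), matched on days 32, 119, 187, 266 and 365 (time points in days, whose starting event the labels do not name). The members were chosen by measured values: a barcode was removed when its mean share over the 5 nRBC (nucleated red blood cell) libraries was at least 10%, and each library was then rescaled to 100%. This removed 6 of 44423 barcodes, bc1 to bc6, and left 44417. The lowest removed barcode, bc6, had a mean nRBC share of 14.3%, and the highest kept one, bc11, had 1.36%. Barcodes are numbered by their mean share over all 38 libraries.

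The animal was a male of 4 years named ZL34. Its own CD34+ cells were mobilised with G-CSF/AMD1300, exposed to a lentivirus library of barcodes (MOI, the vector dose per cell, 25) and returned to it once TBI had been given. It received cidofovir at 5 mg/kg every week, so every library shares that drug and that vector. All libraries are genomic DNA of peripheral blood, with 1 library for each lineage and day. No second animal and no untransplanted control were analysed here. The days are serial samples, and spreads below are over days. The counts hold no gene expression, so the purity of the B and Mono cells was not tested.

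Blood stem and progenitor cells give rise to myeloid cells such as monocytes and granulocytes and to lymphoid cells such as B cells. Monocytes stay in blood briefly and are replaced all the time, whereas B cells can persist and can divide outside the marrow. A barcode written into a stem or progenitor cell by the vector is passed to all its descendants. A barcode found in both lineages therefore marks a cell, or a set of cells with that barcode, whose descendants reached both. A cell that took up several vector copies carries several barcodes, and its share is then spread over all of them.

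The barcodes on which the results turn are printed 5′ to 3′ as deposited, 50 bases each. Capitals mark the variable stretch between the constant start and the sequencing adapter. The first 5 were the most abundant in both lineages, and bc7 to bc10 form group 2, described with the other groups after the overlap.
bc7: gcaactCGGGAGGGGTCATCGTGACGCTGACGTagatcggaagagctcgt
bc8: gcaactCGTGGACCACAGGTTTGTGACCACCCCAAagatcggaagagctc
bc9: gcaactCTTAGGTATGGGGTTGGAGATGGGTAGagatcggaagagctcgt
bc10: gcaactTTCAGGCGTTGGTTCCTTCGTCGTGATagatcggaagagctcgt
bc11: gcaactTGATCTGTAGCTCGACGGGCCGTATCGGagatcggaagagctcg
The next 4 stand for groups 3, 5, 6 and 7, which were far larger in Mono than in B.
bc12: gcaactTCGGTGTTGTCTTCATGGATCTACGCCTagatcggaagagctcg
bc32: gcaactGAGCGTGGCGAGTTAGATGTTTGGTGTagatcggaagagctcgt
bc25: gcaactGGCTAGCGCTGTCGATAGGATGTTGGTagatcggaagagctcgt
bc27: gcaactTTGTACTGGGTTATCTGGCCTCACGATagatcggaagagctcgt
The last 2 were chosen after their values were seen. bc124 was higher in B on days 119 to 365 and listed in B alone at day 32, and bc89 had counts in all 10 libraries with means within 2-fold.
bc124: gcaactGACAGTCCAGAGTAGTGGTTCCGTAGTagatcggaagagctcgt
bc89: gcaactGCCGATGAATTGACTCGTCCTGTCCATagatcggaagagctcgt
No pair of the 44423 deposited sequences differed by a single base.

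The removal changed Mono far more than B. In Mono the removed clone held 0.256%, 0.952%, 14.6%, 41.1% and 91.7% of reads on the 5 days in order. In B it held 0.0152%, 0.171%, 0.415%, 10.6% and 7.24%. The reads left were 1965339 to 3034800 in the B libraries and 1839898 to 2832091 in Mono of days 32 to 266, but 261982 in Mono of day 365. No count from 1 to 100 occurs in these libraries, so a listed 0 was taken as 100 reads or fewer. After rescaling, 100 reads were 0.00330% to 0.00544% of a library, except in Mono of day 365, where they were 0.0382%. Values of that library describe the 8.32% of its reads that were not the removed clone.

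B remained spread over very many barcodes, while Mono was carried by few from day 119 on. The effective number (the number of equally abundant barcodes that would have the same Shannon entropy) was 14372, 6519, 10032, 6880 and 5907 in B. In Mono it was 8856, 48.1, 154, 425 and 4.57. The 2 lineages were nearest at day 32, and B was above Mono on every day. Reading from the most abundant barcode down, 5029, 2315, 3106, 2191 and 1673 barcodes made up 50% of B reads, against 3224, 12, 10, 44 and 1 in Mono. No barcode reached 1% of B reads except bc11 at day 266, whereas 31, 17, 8 and 5 did in Mono on days 119 to 365.

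The mean log2 ratio of the effective number, B over Mono, was 5.63 (SD 3.58, n = 5 days), above 0 on 5 of 5 days. An exact two-sided sign-flip permutation test gave p = 0.0625 (adjusted p = 0.0625 over 3 tests), the smallest that this test can give with 5 days, so it cannot pass 0.05 here. With only barcodes above 0.0382% of a library, the common floor set by Mono of day 365, the mean was 0.81 (exact p = 0.5625): day 32 turned to −5.73, and days 119 to 365 were at 0.97, 1.15, 1.78 and 5.87. At that floor B and Mono of day 32 had no barcode in common. At the floor of the shallower library of each day, a setting added after the data were seen, the mean was 4.48, with −0.56 at day 32 and 3.87 to 7.25 on the other days.

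Sharing was lopsided. At least 83.1% of Mono reads from day 119 on lay in barcodes that B also held. Most B reads, however, lay in barcodes not listed in Mono. The share of Mono reads in barcodes listed in B of the same day was 35.4%, 98.5%, 90.3%, 83.1% and 99.7%. The share of B reads in barcodes listed in Mono of the same day was 23.2%, 15.6%, 28.2%, 37.1% and 7.72%. Mono was above B on each day. The mean gap was 59.0 points with an SD of 31.7 over 5 days, and the exact sign-flip test gave p = 0.0625 (adjusted p = 0.0625). Exact Clopper-Pearson 95% intervals of these shares were at most 0.135 points wide. These are limits of counting alone, because reads of PCR products with no molecular identifiers can be copies of 1 molecule.

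B also listed many more barcodes, which moves with this result. B listed 15812, 8343, 13459, 8975 and 8282 barcodes and Mono 10204, 802, 3071, 3664 and 191. Of these, 3353, 572, 2078, 2134 and 184 were listed in both on the day. They were 21.2%, 6.86%, 15.4%, 23.8% and 2.22% of the B list, and 32.9%, 71.3%, 67.7%, 58.2% and 96.3% of the Mono list. At the common floor the difference in reads was 27.3 points on average, with 0 at day 32 and 15.6 to 59.9 points on the other days. At the floor of the shallower library of each day it was 48.5 points on average. There day 32 turned to −8.83 points, and on the other 4 days it was 42.9 to 87.2 points.

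Which barcodes were listed in both lineages mostly followed their rank. An exception was Mono of day 187, where 84.0% of ranks 1 to 50 and 85.6% of ranks 51 to 500 were listed in B. Of the 50 highest Mono barcodes of each day, 27, 49, 42, 46 and 50 were listed in B. Together these 50 held 94.7% of Mono reads and 5.70% of B reads at day 119, and 92.6% and 2.89% at day 365. Seen from B, 24, 40, 42, 47 and 24 of its 50 highest barcodes were listed in Mono. Below rank 500, only 20.7%, 5.04%, 13.6%, 20.8% and 1.27% of B barcodes were listed in Mono, although that tail held 75.1% to 91.4% of B reads. At day 365 the B barcode at rank 500 held 0.0308%, below the 0.0382% that 100 reads make in Mono. A like share in Mono would be listed as 0 there, so the 1.27% is not read as a lack of sharing.

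Sharing of a barcode did not mean a like share in both lineages. The summed smaller share, which is 100% for equal libraries and 0% for libraries with no barcode in common, was 20.3%, 9.17%, 19.0%, 27% and 6.73%. Among barcodes listed in both, 68.7%, 29.2%, 62.9%, 62.3% and 38.6% were within 2-fold of each other. These held only 1.37% of Mono reads at day 119 and at most 20.3%, at day 266. By contrast, shared barcodes that were at least 10-fold higher in Mono numbered 18, 41, 39, 28 and 10. These few held 73.0%, 68.0%, 40.5% and 79.8% of Mono reads on days 119 to 365, and 2.69%, 2.78%, 1.53% and 0.828% of B reads. Shared barcodes at least 10-fold higher in B numbered 0, 7, 2, 0 and 0.

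No single barcode listed in only 1 lineage of a day held more than 0.588% of that library. The highest Mono barcode listed at 0 in B was bc33 at day 32 (0.157%), bc64 at day 119 (0.255%), bc39 at day 187 (0.588%), bc34 at day 266 (0.411%) and bc941 at day 365 (0.0542%). bc33, bc34 and bc39 belong to group 5, which had 5, 7 and 6 of its 9 members listed in B at days 32, 187 and 266. The highest B barcode listed at 0 in Mono was bc3787 at day 32 (0.0771%), bc1658 at day 119 (0.195%), bc450 at day 187 (0.0828%), bc112 at day 266 (0.102%) and bc85 at day 365 (0.134%). At day 32, bc33 was the highest barcode of the whole Mono library and bc3787 the highest of the whole B library.

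The abundant remaining barcodes fell into 7 groups whose members rose and fell together over the 38 libraries (complete linkage, every pair with r of at least 0.95, among barcodes that reached 1% in some library). With bc11 and bc87, which stood alone, they numbered 45. In Mono they held 2.67%, 86%, 67.8%, 47.9% and 91.4% of remaining reads. In B they held 0.171%, 5.38%, 2.80%, 3.0% and 2.33%. The members were joined by their values in these same libraries, so the groups are descriptions and were not tested.

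Group 2 (bc7 to bc10) was the largest in both lineages at day 187. It held 0.262%, 26.3%, 36.6%, 27.1% and 7.12% in Mono and 0.00800%, 1.14%, 1.96%, 0.992% and 0.831% in B. Mono was 32.8, 23.2, 18.7, 27.4 and 8.58 times B. Both lineages held more of group 2 at day 119 than at day 32. The ratio was lowest at day 365, but there bc11 held 77.7% of remaining Mono reads, which lowers every other Mono share. That low ratio is therefore not read as a narrower gap. At day 32 only bc9 of the 4 was listed in B, against 4 of 4 in Mono. T cells of days 119 to 365 held 11%, 26.1%, 23.9% and 18.7% in group 2. These values lay above those of B on each of the 4 days.

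Groups 3 and 5 were close in Mono at day 119 but not in B. Group 3 (11 barcodes, bc12 among them) held 25.0% of Mono and 3.05% of B, and group 5 (9 barcodes, bc32 among them) held 24.9% of Mono and 0.548% of B. Mono was thus 8.20 times B in group 3 and 45.4 times B in group 5 on the same day. In B, both groups had their highest share at day 119. At days 187 and 266 the ratio was 19.8 and 10.9 in group 3 and 49.1 and 49.7 in group 5. At day 365, with bc11 at 77.7% of Mono, it was 6.21 and 6.59.

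Group 6 (bc25, bc26, bc30 and bc36) showed the widest gap of any group and day. Its Mono share was 9.97% at day 187, where its B share was 0.0593%, a ratio of 168, up from 24.6 at day 119. Group 7 (bc22, bc27 and bc29) held 5.05%, 5.55% and 6.95% of Mono at days 119, 187 and 266. In B it held 0.282%, 0.0801% and 0.197% on those days.

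The ratio of Mono to B was not the same for all abundant barcodes of a day. Among the 20 highest Mono barcodes it ran from 5.98 (bc14) to 67.8 (bc32) at day 119, where all 20 were listed in B. It ran from 15.1 (bc20) to 186 (bc25) at day 187, and from 4.71 (bc11) to 69.4 (bc35) at day 266 among the 18 listed in B. For the removed clone, in percent of all reads, it was 5.57, 35.3 and 3.88 on those days. Carry-over of monocytes into the B cells was not tested.

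bc11 filled most of the rest of Mono at day 365, but under 1% of B. It was listed at 0 in both lineages at days 32 and 119. In Mono it then held 1.44%, 5.74% and 77.7% (exact 95% interval 77.6 to 77.9%, counting error only) at days 187, 266 and 365, and in B 0.0475%, 1.22% and 0.642%. It was the highest barcode of B at days 266 and 365. In granulocytes (Gr) of the same days it was listed at 0 and held 0.0875% and 95.6%. bc11 is the barcode just below the rule's threshold. If it is removed too, the mean log2 ratio of the effective number is 4.77.

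Groups 4 and 8 went the other way on some days. Group 4 (7 barcodes) was listed at 0 in Mono at days 32 and 119, where B held 0.0206% and 0.0356%. With each 0 at 100 reads Mono could hold up to 0.0365% and 0.0270%, so the order at day 32 is not known. At days 187 and 266 the Mono shares were 0.0248% and 0.0239% and the B shares 0.0721% and 0.0669%. At day 365 it was 1.13% of remaining Mono reads, against 0.143% of remaining B reads. Of all Mono reads, the removed clone included, it was 0.0940%. That value has another denominator and is not set against the B share. T cells of that day held 8.71% in group 4. Group 8 (5 barcodes) held 0.596% of Mono and 0.0227% of B at day 32, 0.0141% and 0.0372% at day 266, and 0.429% and 0.0612% at day 365. T cells of day 365 held 2.42% in it. The part of T cell DNA in the Mono values was not tested.

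For single barcodes the test was edgeR's quasi-likelihood test on counts, with day as a block. Of 142 barcodes with at least 0.05% of remaining reads in at least 2 of the 10 libraries, 10 were called at an adjusted p under 0.05 (7.04%), all higher in Mono. The 10 were bc9, bc16, bc25, bc27, bc32, bc35, bc37, bc40, bc42 and bc54. Of these, 9 belonged to groups, 4 of them to group 5, and members of 1 group do not count as separate support. All 10 had the same adjusted p, 0.0449, close to the threshold. Of the 10, 7 had fewer than 2 B libraries at 0.05% and passed the filter through Mono, and 5 of those (bc25, bc32, bc37, bc42 and bc54) reached it in no B library. For these the filter favours the direction that was called, so that all 10 were higher in Mono is not read as a result. The test takes serial days of 1 animal as independent samples, which they are not.

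bc32 of group 5 showed the largest called change. It held 0.148%, 3.18%, 0.722%, 0.416% and 0.104% of Mono and 0.0106%, 0.0469%, 0.00596%, 0.00886% and 0.0129% of B. The lowest Mono value lies above the highest B value. The means were 0.914% ± 1.29 and 0.0170% ± 0.0169 (SD, n = 5 days). The fitted log2 difference, B over Mono, was −5.10 ± 1.00 (SE, edgeR adjusted p = 0.0449). bc32 reached 0.05% in no B library and passed the filter through Mono. Neither the separation of its values nor its p-value is therefore support for the direction. bc35 and bc37 of the same group changed by −4.60 and −4.41.

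bc9 of group 2 held 0.0769%, 8.0%, 8.60%, 6.61% and 1.59% of Mono and 0.00800%, 0.395%, 0.439%, 0.225% and 0.181% of B. Apart from day 32, every Mono value was above every B value. The means were 4.98% ± 3.89 and 0.250% ± 0.174 (SD, n = 5 days), and the log2 difference −3.98 ± 0.72 (edgeR adjusted p = 0.0449). The other 3 members of group 2 did not pass. bc7 had a log2 change of −4.90 ± 1.47 and bc8 of −4.89 ± 1.5 (adjusted p = 0.0854 each), and bc10 of −5.03 ± 1.38 (adjusted p = 0.0773). These 3 were listed at 0 in B of day 32. bc8 held 0.358%, 0.543%, 0.226% and 0.199% of B and 8.06%, 9.07%, 6.72% and 1.67% of Mono on the later 4 days. bc10 differed from the other members at day 119, with 0.0699% of B and 1.95% of Mono, and was like them at day 187, with 0.521% and 9.24%. On the later 4 days bc7 held 0.312%, 0.456%, 0.347% and 0.187% of B and 8.34%, 9.64%, 6.93% and 1.63% of Mono.

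bc25 of group 6 held 0.0400%, 1.09%, 3.24%, 0.298% and 0.207% of Mono and 0.00463%, 0.0471%, 0.0174%, 0.00922% and 0.0252% of B (log2 change −4.54 ± 1.02). bc27 of group 7 held 0.103%, 1.63%, 1.99%, 2.17% and 0.523% of Mono and 0.00777%, 0.0990%, 0.0254%, 0.0491% and 0.0507% of B (log2 change −4.55 ± 0.86). In both, Mono was higher on 5 of 5 days. bc25, like bc42 and bc54 below, reached 0.05% in no B library. The other called barcodes were lower in B by mean share too: bc16 at 0.115% against 1.02%, bc40 at 0.0286% against 0.666%, bc42 at 0.0127% against 0.366%, and bc54, the one outside the groups, at 0.0230% ± 0.0149 against 0.498% ± 0.359 (SD, n = 5 days). bc22 of group 7, bc12 of group 3 and bc11 did not pass, with log2 changes of −5.52 ± 1.46, −4.04 ± 1.42 and −4.37 ± 1.46 (edgeR adjusted p = 0.0773, 0.111 and 0.121). bc12 held 0.541% of B and 3.54% of Mono at day 119, and was listed at 0 in B of day 32.

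No barcode was called higher in B by edgeR, where 4 had an unadjusted p under 0.05 with the higher value in B. DESeq2 called 22 higher in B and 43 in Mono. With TMM factors, which shifted the median log2 change of all tested barcodes from −0.55 to 0.34, edgeR called 4 higher in B and 21 in Mono. Of the 10 calls, DESeq2 shared 10 and TMM 8. The 10 calls became 28 without day 32, 7 without day 365, and 0 without day 119, 187 or 266. They became 0 with no barcode removed, 33 with bc11 removed too, and 58 with each 0 set to 100 reads. With the filter at 0.01% 9 were called, and only 1 of them was among the 10. Over the 142 barcodes the mean share was higher in Mono for 78 and in B for 64. Mono was higher on all 5 days for 36, whatever value up to 100 reads a listed 0 takes. B had the higher listed value on all 5 days for 9, and for only 4 of these does that hold for every value a listed 0 allows. Of the 142, 58 passed the filter through Mono libraries alone and 38 through B libraries alone, so the filter itself fixes part of these counts.

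The 9 barcodes with the higher listed value in B on every day, described after their values were seen, were all at low shares. They were bc94, bc97, bc101, bc102, bc124, bc150, bc192, bc268 and bc336, and none passed the test. bc124 held 0.00451%, 0.0374%, 0.0753%, 0.0391% and 0.0853% of B. In Mono it was listed only at day 187, at 0.0282% (edgeR adjusted p = 0.0773). With each Mono 0 at 100 reads its mean was at least 2.99-fold higher in B. bc101 held 0.183% of B and 0.0645% of Mono at day 365. All 9 were listed at 0 in Mono of day 32, where 100 reads are 0.00522%. B was below that share for 5 of them (bc94, bc101, bc124, bc150 and bc192), so their order at day 32 is not known.

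Over the 5 days together, 35646 barcodes were listed in B or Mono. Of these, 10218 were listed in both lineages, which is 31.8% of the 32149 listed in B and 74.5% of the 13715 listed in Mono. They shared a day in 6183 cases, so the other shared barcodes were listed in B and Mono on different days. Without day 32 the shared barcodes were 4404, or 19.1% of the B list and 85.7% of the Mono list. The barcodes listed in both at some time held 96.9% or more of Mono reads on each day after day 32, and 57.4% to 71.9% of B reads.

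Barcodes listed in both lineages were also found more often elsewhere. 61.1% of them had counts in Gr of the same 5 days, against 18.6% of barcodes listed in B only and 30.0% of those listed in Mono only. In T the values were 46.9%, 21.2% and 19.4%. In the B libraries of days 393, 494 and 553, which entered no comparison, they were 61.3%, 24.7% and 22.5%. Of barcodes listed in neither lineage, 28.0%, 38.7% and 35.6% had counts in Gr, T and these later B libraries. In T and later B these values lay above those of barcodes listed in B only or in Mono only. Barcodes listed in neither lineage can have counts only in other libraries, T and later B among them. That lifts these values, so the order is not read as a result. Within the 5 days, 65.6% of barcodes listed in both were seen in B on more than a single day. Among those listed in B only it was 29.1%. How far this recurrence accounts for the later B values was not tested. Abundance moves with these shares: the median over barcodes of the highest B share was 0.00922% in barcodes listed in both and 0.00573% in those listed in B only. Its part in the difference was not tested. The GC content of the variable stretch was 53.7% ± 9.64 (SD over 10023 barcodes), 53.6% ± 9.75 (21501) and 52.9% ± 10.0 (3340) in barcodes listed in both, in B only and in Mono only.

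Only 28 barcodes had counts in all 10 libraries. 13 of them were members of groups 2, 3, 5, 6 and 7, and 15 were outside the groups. Of those 15, 13 had mean shares within 2-fold of each other in the 2 lineages, with Mono at 0.549 to 1.67 times B and means of 0.0149% to 0.0634% in B. bc89 was the highest of these in B. It held 0.0102%, 0.0886%, 0.0761%, 0.0733% and 0.0687% of B and 0.0143%, 0.0155%, 0.0185%, 0.0735% and 0.0523% of Mono. The exceptions were bc53, at 4.77 times B in Mono, and bc54, at 21.7 times. The barcodes that persisted in both lineages thus held pairs with strongly unequal means and pairs with means within 2-fold. Means within 2-fold did not make the values of each day alike. bc89 was at 0.0886% of B and 0.0155% of Mono at day 119. A count in all 10 libraries also needs more than 0.0382% in Mono of day 365, which listed 191 barcodes. This lifts low Mono means. For example, bc567 held 0.0603% of Mono at day 365, against 0.00435% to 0.0146% on the other days. Means within 2-fold are therefore not read as like output.

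The similarity of B and Mono, Pearson's r of square-rooted shares across barcodes, was −0.00102, 0.276, 0.318, 0.387 and 0.182 on the 5 days. Barcodes are not independent replicates in it, and it has no test. Between Gr and Mono of the same days it was 0.232, 0.935, 0.740, 0.700 and 0.923. The difference between these pairs averaged 0.474 with an SD of 0.219 over the 5 days (exact sign-flip p = 0.0625, adjusted p = 0.0625), and Gr was nearer to Mono on 5 of 5 days. Both values of a day share the Mono library. For B against Gr, 22.1%, 25.8%, 37.0%, 42.7% and 3.53% of B reads lay in barcodes listed in Gr. In turn 37.1%, 95%, 79.0%, 70.1% and 99.8% of Gr reads lay in barcodes listed in B. Between B and Gr r was 0.0258, 0.320, 0.384, 0.406 and 0.116. Mean r of B and Mono was 0.232 (SD 0.150). As Spearman's rho over barcodes listed in either library of a pair, with each 0 kept, the mean was −0.0714 (SD 0.257). It was −0.504, 0.0511, 0.0241, −0.0850 and 0.157 on the 5 days. At day 32 only 3353 barcodes were in both lists, of 15812 in B and 10204 in Mono. Most pairs there set a 0 against a count, which pulls rho down, so its sign is not read as opposed shares. By Spearman's rho the gap between Gr and B in likeness to Mono averaged 0.150 (exact p = 0.125), with Gr nearer on 4 of 5 days and −0.0824 at day 365.

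Across days, by r alone, B of day 32 was unlike every Mono library, and Mono of day 266 was most like B of day 365. The summed smaller share ranked B and Mono of day 32 otherwise. At 20.3% it was above the 9.17%, 19.0% and 6.73% of days 119, 187 and 365, and below the 27% of day 266. The low r of day 32 is therefore not read as a lack of shared barcodes. B of day 32 had r from −0.0123 to 0.00690 with the 5 Mono libraries, and from −0.0365 to 0.00238 with the later B libraries. Mono of day 32, in contrast, had r of 0.180, 0.126, 0.118 and 0.132 with B of days 119 to 365. Of B reads on those days, 40.1%, 34.0%, 33.0% and 34.1% lay in barcodes listed in Mono of day 32, and 34.6%, 32.2%, 31.7% and 32.4% in barcodes listed in B of day 32. The Mono list of day 32 was the shorter one, with 10204 against 15812 barcodes. Mono of day 266 had r of 0.456 with B of day 365, above the 0.387 with B of its own day. Of B reads at day 365, 47.7% lay in barcodes listed in Mono of day 266, against 7.72% for Mono of day 365. That library listed 191 barcodes from 261982 remaining reads, and Mono of day 119 listed 802 from 2595003. These similarities were not tested.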

How the data were processed

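The deposited table holds the authors' raw read counts of 44423 sequences of 50 bases in 38 libraries, with no normalization. Barcodes were amplified from 200 ng of DNA in 28 PCR cycles, per the labels' protocols. Program and settings of the counting: not given in the sources used here. Members, lists and groups were chosen with earlier results of these data known. Barcodes with a mean nRBC share of at least 10% were dropped and each library was rescaled to 100%. Counts of the 10 B and Mono libraries were tested with edgeR 4.0.16 (quasi-likelihood, day as a block, library size set to the remaining reads, Benjamini-Hochberg over the 142 barcodes with at least 0.05% in at least 2 libraries), and the script was tested on simulated data. DESeq2 1.42.0 was an alternative. Day means were tested with exact sign-flip permutation tests. Pairing comes from the day in the labels. Deviations of the 2 libraries of a day correlated over 142 barcodes at 0.387, 0.764, 0.273, 0.538 and 0.558. Deviations of libraries of different days were not correlated, so these values do not test the matching. Barcodes were named by a rule: the 6 highest by mean in B, in Mono and by the smaller mean, up to 5 calls a direction, and every group. Days are serial samples of 1 animal, so p-values measure only the spread between these libraries. Depths are those in the report, with intervals that cover counting error only.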

Additional observations from a re-analysis of the deposited data

Results flagged for a closer look

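In 8 of 33 series of 5 days, 1 day stood apart from the other 4 by more than 0.71 of the whole range (Dixon's critical value). Independent, normally distributed values pass it in about 1 of 20 series. Values of serial days are not independent, so 8 of 33 is not read as an excess over chance. Several of the 8 share a library and are not separate results. Day 32 stood apart in Mono, with the lowest share of reads in barcodes listed in B (35.4%) and the highest effective number of barcodes (8856). Day 119 stood apart for group 3 in B (3.05%), group 5 in B (0.548%) and group 5 in Mono (24.9%). Day 365 stood apart in Mono for the highest barcode, which was bc11 (77.7%), and for group 4 (1.13%). The cause was not tested.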

How the results depend on the processing

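The count of barcodes called by edgeR, 10, moved most with the processing. It was 25 with TMM factors, 65 with DESeq2, 7850 with no filter (of 35646 tested, 7538 higher in B), 58 with each listed 0 at 100 reads and 33 with bc11 dropped too. With no replicate block it was 0 (31 at an unadjusted p under 0.05), and with no barcode dropped 0 (27). Leaving out 1 day gave 0 to 28 calls. The mean r of B and Mono was 0.403 at the common floor, 0.455 on the share itself and −0.0714 as Spearman's rho. The mean summed smaller share was 26.2% at the common floor. At that floor the log2 ratio of the effective number was 0.81 and the gap in reads in shared barcodes 27.3 points. The difference between Gr and B in r to Mono was 0.311 on the share itself and 0.150 as Spearman's rho. Leaving out 1 day gave means of 4.46 to 6.86 for the log2 ratio of the effective number, 50.8 to 70.7 points for reads in shared barcodes, 0.194 to 0.291 for r, 13.8% to 18.9% for the summed smaller share and 0.407 to 0.534 for the difference between Gr and B in r to Mono. The tested named barcodes kept their direction in 155 of 155 comparisons. They were chosen from these same data by high means or as calls, and every setting reuses the same libraries. That count is therefore no separate support for the direction. The cause of the changes with the processing was not tested. Depth limits Mono of day 365, where 100 reads were 0.0382%.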
